A study of Mus musculus with 24 samples.

Results

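The type I interferon-stimulated genes described here are a list of 38 named genes, drawn up with earlier results of these data known, among the 54146 genes counted in RNA of mouse small intestinal organoids. All 38 were found in the count tables, and all 38 passed the filter on low counts in both experiments. Organoids are cultures of intestinal epithelium grown in a gel from isolated crypts. In the genotype experiment, 4 groups of 3 libraries were compared: WT organoids (Cdk8 lox/lox, without Cre), Cdk8-/- organoids (Cdk8 lox/lox with Villin-CreERT2, a Cre recombinase made in intestinal epithelium and switched on by 4-hydroxytamoxifen), Cdk19-/- organoids, edited in Cdk19, and double knockout organoids, with both changes. All 4 groups, WT included, had been given 4-hydroxytamoxifen at 600 nM for 7 days. Cdk19 was edited with a lentivirus carrying Cas9 and a guide RNA. Edited organoids were selected with puromycin and grown up from single organoids, so that differences between clones are part of these groups. The paper describes no such step for the WT and Cdk8-/- groups. Effects of the virus and the selection therefore cannot be told apart from those of the edit. In the Senexin B experiment, WT organoids received Senexin B, an inhibitor of CDK8 and CDK19, or its solvent DMSO, for 16 h or 24 h, again with 3 libraries a group.

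Type I interferons bind the receptor chains IFNAR1 and IFNAR2, and the kinases JAK1 and TYK2 then phosphorylate STAT2. With IRF9 it takes part in the complex ISGF3, which binds the interferon-stimulated response element in the promoters of its target genes. Among the targets are sensors of foreign RNA and DNA, proteins that block viral RNA and its translation, the ubiquitin-like modifier ISG15, and the factors STAT2, IRF9 and IRF7 themselves. Intestinal epithelium also responds to type III interferon, through IFNLR1 and IL10RB and the same complex. CDK8 and CDK19 are alternative kinases of the Mediator kinase module, which binds reversibly to Mediator, the complex that links transcription factors to RNA polymerase II.

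The members whose values differed most clearly by treatment or genotype in what follows were Ifit3 and Ifit3b, which had the largest falls with Senexin B, and Oasl1 and Samd9l, which rose in double knockout organoids with the smallest adjusted p-values of the list. Their promoters are shown for that reason, as the 250 bases before the RefSeq start site on GRCm38.p6, written 5′ to 3′ on the strand of the gene. Capitals mark each match to GAAA, any 2 bases, then GAAA, the core of the interferon-stimulated response element, searched on both strands, so that TTTC, any 2 bases, then TTTC is the same motif read from the other strand.
Ifit3 (chr19:34583279-34583528, plus strand): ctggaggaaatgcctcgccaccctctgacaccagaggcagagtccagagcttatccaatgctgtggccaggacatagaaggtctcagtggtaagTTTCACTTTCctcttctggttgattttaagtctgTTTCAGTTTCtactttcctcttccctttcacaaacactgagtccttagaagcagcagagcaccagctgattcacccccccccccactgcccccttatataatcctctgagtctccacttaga
Ifit3b (chr19:34607707-34607956, plus strand): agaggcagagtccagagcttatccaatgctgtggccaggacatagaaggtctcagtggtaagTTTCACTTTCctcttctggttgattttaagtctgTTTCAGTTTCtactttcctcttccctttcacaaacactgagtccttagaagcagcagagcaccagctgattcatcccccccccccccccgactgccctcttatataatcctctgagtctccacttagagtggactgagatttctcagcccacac
Oasl1 (chr5:114922990-114923239, plus strand): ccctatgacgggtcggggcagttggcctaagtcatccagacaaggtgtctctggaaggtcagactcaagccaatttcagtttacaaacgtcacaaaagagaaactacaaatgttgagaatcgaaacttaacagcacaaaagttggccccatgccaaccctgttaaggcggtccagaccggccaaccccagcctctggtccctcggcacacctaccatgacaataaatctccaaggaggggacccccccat
Samd9l (chr6:3399572-3399821, minus strand): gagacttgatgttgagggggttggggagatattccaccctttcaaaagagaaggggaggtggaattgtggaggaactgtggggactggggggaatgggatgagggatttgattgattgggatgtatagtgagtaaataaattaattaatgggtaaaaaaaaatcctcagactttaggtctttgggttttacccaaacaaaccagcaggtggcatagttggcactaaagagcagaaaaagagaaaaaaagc
Ifit3 held 2 matches, which began 156 and 122 bases before the start, and Ifit3b held 2 matches, which began 188 and 154 bases before it. Laid over each other with a shift of 32 bases and no gaps, the promoters of Ifit3 and Ifit3b were identical at 188 of 218 bases (86.2%). Neither Oasl1 nor Samd9l held a match in the letters shown. Of the 29 members with a RefSeq promoter window of 300 bases (250 before and 50 after the start), 15 (51.7%) held the motif, against 1079 of the 27025 genes with a window (3.99%).

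The 38 members were spread over 7 roles. The transcription factors were Irf7, Irf9 and Stat2. The sensors were Zbp1, which binds Z-form nucleic acids, Ddx58 (RIG-I), Ifih1 (MDA5) and Dhx58 (LGP2), which bind viral RNA, and Ddx60. The effectors on viral RNA and translation were Ifit1, Ifit2, Ifit3 and Ifit3b, the 2′-5′ oligoadenylate synthetase genes Oas1a, Oas1g, Oas2 and Oas3 with their relatives Oasl1 and Oasl2, Eif2ak2 (the kinase PKR) and Samd9l. A further group held the GTPases Mx1 and Mx2, Rsad2 (viperin), Bst2 (tetherin), the nucleotide kinase Cmpk2 and Rtp4. The ISG15 system comprised Isg15, its ligase Herc6 and its protease Usp18, and the PARP and ubiquitin ligase group Parp9, Parp12, Parp14, Dtx3l and Trim30a. Ifi44, Ifi35, Xaf1 and Lgals3bp made up the rest. The Ifit genes lie together on chromosome 19 of GRCm38, with Ifit2 at chr19:34550694-34576419, Ifit3 at chr19:34583531-34588731, Ifit3b at chr19:34607970-34613401 and Ifit1 at chr19:34640871-34650009. Oasl1 is at chr5:114923240-114937915, Samd9l at chr6:3372257-3399572 and Stat2 at chr10:128270559-128292849.

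The genotype libraries held 14636861 to 15473180 counts each and the Senexin B libraries 27075937 to 28405118, in the column used. Without regard to strand the genotype libraries held 27761454 to 29299919 counts on genes, so the column used leaves out a large part of them. The genotype libraries carried no strand information (49.6 to 49.7% of strand-assigned counts were on the strand used, against 87.9 to 90.5% in the Senexin B libraries), so reads of a member and of a gene overlapping it on the other strand, such as Dtx3l and Parp9, cannot be told apart there. Reads that fit several places were not counted, which can make the split between related genes uncertain where their sequences are alike. Related pairs were Ifit3 and Ifit3b, Oas1a and Oas1g, Mx1 and Mx2, and Oasl1 and Oasl2. Their likeness was measured only for the promoters of Ifit3 and Ifit3b. Levels below are CPM (a gene's counts scaled to a common library size), normalised within each experiment. Log2 fold changes come with a standard error (SE), their size divided by the square root of the F statistic of the test below. A gene was called when the adjusted p-value of edgeR's quasi-likelihood test, with the Benjamini-Hochberg adjustment over all genes tested, was under 0.05, and only called genes are said to have risen or fallen. The median log2 fold change over all genes tested lay between −0.02 and 0.01 in every comparison.

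Some libraries went against or stood apart from their labels. Cdk19 was at 47.6, 50.1 and 48.6 CPM in the WT libraries and at 47.0, 43.2 and 38.9 CPM in the Cdk8-/- libraries. The libraries labelled Cdk19-/- held 48.8, 28.1 and 28.3 CPM, and those labelled double knockout 27.0, 23.8 and 51.7 CPM, so that the library labelled Cdk19-/- replicate 1 and the library labelled double knockout replicate 3 had Cdk19 at the WT level. The edit itself is not seen in these counts. Cdk8 counts, at 35.8 to 57.3 CPM over the 12 libraries, check nothing, since the deletion removes 1 exon and the counts are summed over the gene. The genotype libraries are labelled as cells of the 4T1 mammary line, but markers of mammary tissue summed to at most 1.48 CPM and markers of intestinal epithelium to 6603 to 8951 CPM. Markers of leukocytes, which express many interferon-stimulated genes, summed to 14.4 to 17.6 CPM in WT, 17.5 to 18.9 CPM in Cdk8-/-, 13.2 to 15.5 CPM in Cdk19-/- and 16.1 to 18.0 CPM in double knockout libraries. In the Senexin B experiment they summed to 3.49 to 4.89 CPM. In these bulk libraries, fewer cells of a type and less RNA per cell cannot be told apart.

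Compared per kilobase of exon in WT libraries, members of the list lay far apart. Lgals3bp, a secreted glycoprotein, was highest at 176 CPM per kb, and Ifi35 followed at 22.9 and Samd9l at 11.7 CPM per kb. Irf7, the factor that amplifies interferon production, stood at 4.46 CPM per kb, Isg15 at 0.966 CPM per kb and Oas2 at 0.129 CPM per kb. Ifi44 was lowest, at 0.0337 CPM per kb, with raw counts of 1, 5 and 3 in the WT libraries. The 38 members together took 1011, 1062 and 1015 CPM in the WT libraries, of which Lgals3bp alone made up 477, 511 and 512 CPM. Lower members varied more within WT, such as Oas1a at 9.15, 9.62 and 2.45 CPM and Bst2 at 8.68, 9 and 2.86 CPM, both lowest in replicate 3.

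Within each mutant group the summed levels differed by more than in WT. The members summed to 1353, 1148 and 2155 CPM in Cdk8-/-, to 3420, 1932 and 1276 CPM in Cdk19-/- and to 1477, 1911 and 1731 CPM in double knockout libraries, all above the WT libraries. The library labelled Cdk19-/- replicate 1, which has Cdk19 at the WT level, was the highest of the 12 libraries for 33 of 38 members (10.3% of all genes had their highest value there). The lowest library was WT replicate 3 for 16 members, WT replicate 1 for 7 and WT replicate 2 for 5, against 7.7%, 4.38% and 3.08% of all genes.

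**Figure D1:**
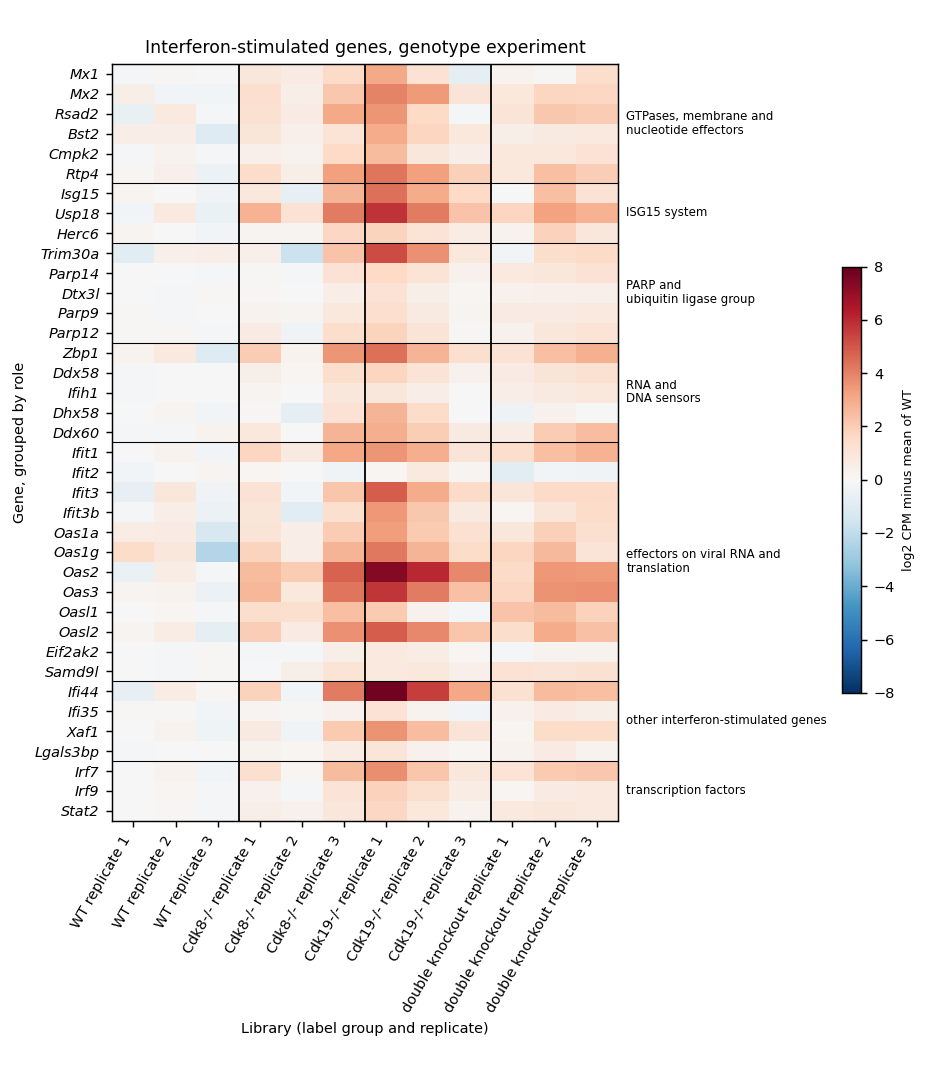
Level of each of the 38 genes (rows, grouped by role) in each of the 12 genotype libraries (columns, by label group and replicate), as log2 CPM with a prior count of 2, minus the mean of the WT libraries. Red is above and blue below the WT mean. The column of Cdk19-/- replicate 1 is the reddest, for 33 of 38 genes the highest of all libraries, and the 3 columns of each mutant group differ among themselves.

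In Cdk8-/- against WT organoids, no member was called, against 5.15% of all genes tested, and the lowest adjusted p-value in edgeR's quasi-likelihood test was 0.0551 for Oasl1. The log2 fold change was above 0 for 37 of 38 members (51.6% of all genes), with a median of 1.10 and a range of −0.07 to 3.77. Members low in WT could pass the filter through the mutant libraries, and 12 of 38 had under 10 counts in at least 1 WT library. The shares and medians over the members of each genotype comparison, and calls of these 12, are therefore a description. Over the 26 members with at least 10 counts in every library of the experiment the median was 0.71. Without adjustment 15 members had p under 0.05, and DESeq2's Wald test called 6, all higher (4.67% of all genes higher). For 15 members (39.5%) all 3 Cdk8-/- libraries lay above all 3 WT libraries, against 14.9% of all genes. The Cdk8-/- libraries did not move together, since their medians over the members, relative to the WT mean, were 0.86, 0.17 and 1.82 on the log2 scale.

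In Cdk19-/- against WT organoids again no member was called, as no gene of all tested was (0%). For 38 of 38 members the log2 fold change was above 0 (45.9% of all genes), the median was 2.13 and the range 0.39 to 7.03. In the WT libraries Ifi44 had 1, 5 and 3 counts, Usp18 3, 8 and 2, and Zbp1 3, 5 and 0, and over the 26 members with at least 10 counts in every library the median was 1.25. Without adjustment 36 members had p under 0.05, among 1691 such genes in all, and DESeq2's Wald test called 23, all higher (1.01% of all genes higher). For 31 members (81.6%) the groups did not overlap, the Cdk19-/- libraries being higher, against 9.13% of all genes. The lowest adjusted p-value was 0.0969, for Oas2. The library medians relative to WT were 2.98, 1.64 and 0.66, so the libraries of this group lay far apart. Of the roles, the ISG15 system had the highest median (3.61), over 3 members with 2 to 16 counts in the WT libraries. The effectors on viral RNA and translation followed (2.65), while the PARP and ubiquitin ligase group had the lowest (1.10).

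Oas2, an oligoadenylate synthetase that activates the nuclease RNase L, shows the size of this spread. It was at 0.337, 0.894 and 0.489 CPM in the WT libraries, 3.71, 2.59 and 17.4 CPM in Cdk8-/-, 110.1, 44.5 and 9.58 CPM in Cdk19-/- and 1.84, 7.38 and 6.82 CPM in double knockout libraries. All 9 mutant libraries were above the WT libraries, and the Cdk19-/- libraries were over 10-fold apart. The fitted log2 fold change against WT was 6.56 (SE 1.12) in Cdk19-/- and 3.77 (SE 1.15, adjusted p = 0.0841) in Cdk8-/- organoids. Ifi44 was also highest in Cdk19-/- replicate 1, at 1.01, 0.137 and 5.59 CPM in Cdk8-/-, 67.3, 14.4 and 2.64 CPM in Cdk19-/- and 0.614, 1.71 and 1.56 CPM in double knockout libraries, against 0.0673, 0.344 and 0.21 CPM in WT. Its WT counts are so few that the size of its fold change (log2 7.03, SE 1.43, adjusted p = 0.122 in Cdk19-/-) is poorly fixed. Irf7 had 16.4, 19.9 and 14.3 CPM in WT, 40.1, 18.4 and 95.8 CPM in Cdk8-/-, 224, 78.3 and 31 CPM in Cdk19-/- and 36, 70.9 and 76.3 CPM in double knockout libraries, with the Cdk19-/- and double knockout libraries all above WT. Isg15 was at 0.875, 0.756 and 0.559 CPM in WT, 1.42, 0.41 and 5.59 CPM in Cdk8-/-, 18.1, 6.51 and 2.44 CPM in Cdk19-/- and 0.751, 4.35 and 1.75 CPM in double knockout libraries. Here the double knockout and Cdk8-/- groups overlapped WT, and the Cdk19-/- group did not.

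**Figure D2:**
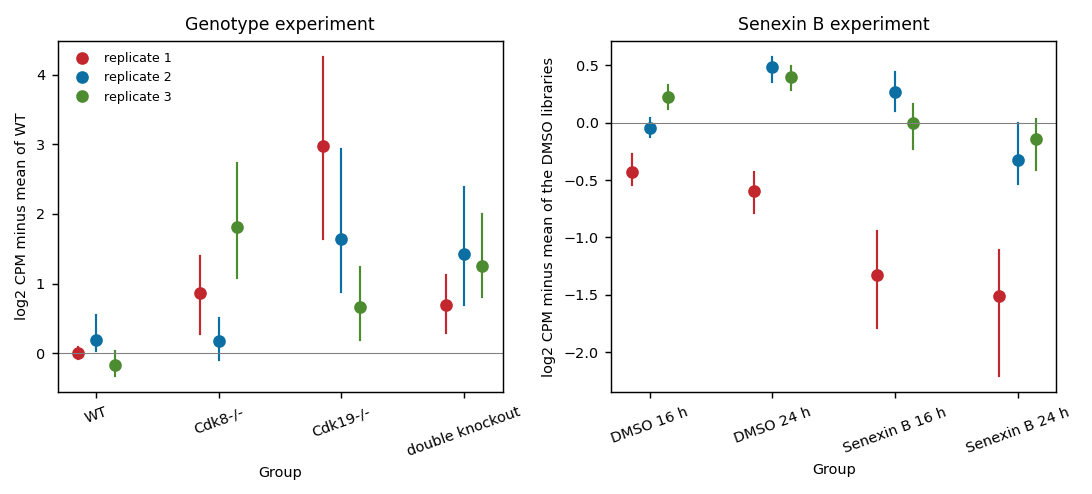
Median over the 38 genes in each library (points), on the log2 scale relative to the mean of WT (genotype experiment) or of the 6 DMSO libraries (Senexin B experiment), with bars from the 25% to the 75% quartile of the genes. WT libraries lie at −0.00, 0.19 and −0.18 and Cdk19-/- libraries at 2.98, 1.64 and 0.66. In the Senexin B experiment replicate 1 is the lowest of each group, down to −1.51 at 24 h with Senexin B.

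In double knockout against WT organoids 4 of 38 members rose (10.5%, against 9.41% of all genes) and none fell (7.9% of all genes). In either direction 17.3% of all genes were called. DESeq2's Wald test called 12 members higher (31.6%, against 11.8% of all genes). A fit of the WT and double knockout libraries alone called 22 of the 35 members it tested (62.9%, against 18.6% of all genes), and one without a filter on low counts 21 (55.3%, against 9.71%). The log2 fold change was above 0 for 37 of 38 members (48.9% of all genes), with a median of 1.13 (0.94 over the 26 members with at least 10 counts in every library) and a range of −0.43 to 3.30. For 27 members (71.1%) the double knockout libraries were all above the WT libraries, against 18.7% of all genes, and for Ifit2 they were all below (20.1% of all genes). The comparisons of the 3 mutant groups with WT share the same WT libraries.

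Samd9l, a brake on translation and cell growth, had the lowest adjusted p-value. It was at 63.5, 60.1 and 67.7 CPM in WT and 143, 130.1 and 146 CPM in double knockout libraries (means 63.8 ± 3.82 and 139.9 ± 8.62 CPM, SD, n = 3), with no overlap (log2 fold change 1.13, SE 0.21, adjusted p = 0.00436, edgeR's quasi-likelihood test). Its Cdk8-/- libraries held 65.1, 87 and 137 CPM and its Cdk19-/- libraries 108, 115 and 84.8 CPM, so that the double knockout lay above every WT and Cdk19-/- library and overlapped Cdk8-/- through replicate 3 of that group. Oasl1, a relative of the oligoadenylate synthetases without their enzymatic activity, was at 18.7, 20.6 and 17 CPM in WT and 90.2, 107 and 68.6 CPM in double knockout libraries (log2 fold change 2.24, SE 0.49, adjusted p = 0.0101). In Cdk8-/- libraries it was at 50.2, 45.9 and 101 CPM, again all above WT (log2 fold change 1.80, SE 0.49, adjusted p = 0.0551). In Cdk19-/- libraries it was at 78.9, 23.6 and 16.5 CPM, which overlapped WT (log2 fold change 1.08, SE 0.49, adjusted p = 0.449). Ifit1, which binds viral RNA that lacks cap methylation, was at 3.97, 4.88 and 3.42 CPM in WT and 10.9, 22.5 and 28.7 CPM in double knockout libraries (log2 fold change 2.34, SE 0.68, adjusted p = 0.0343). The groups did not overlap, but the double knockout libraries were spread over more than 2-fold. The Cdk8-/- libraries held 13.7, 6.76 and 35.7 CPM and the Cdk19-/- libraries 48.1, 30.6 and 8.52 CPM of Ifit1, also all above WT. Oas3 was at 1.41, 1.51 and 0.838 CPM in WT and 4.1, 15.9 and 17.2 CPM in double knockout libraries (log2 fold change 3.30, SE 1.05, adjusted p = 0.049), with 8.29, 2.32 and 26.7 CPM in Cdk8-/- and 72.5, 23.8 and 6.8 CPM in Cdk19-/- libraries. The calls of Samd9l and Oasl1 held in 6 of 6 fits that each left out 1 library of the 2 groups, those of Ifit1 and Oas3 in 1 of 6. Stat2, the subunit of ISGF3 specific to interferon signalling, missed the threshold at 25.2, 25.8 and 22.1 CPM in WT and 41.8, 46.2 and 41.1 CPM in double knockout libraries (log2 fold change 0.82, SE 0.26, adjusted p = 0.0517), although the groups did not overlap.

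**Figure D3:**
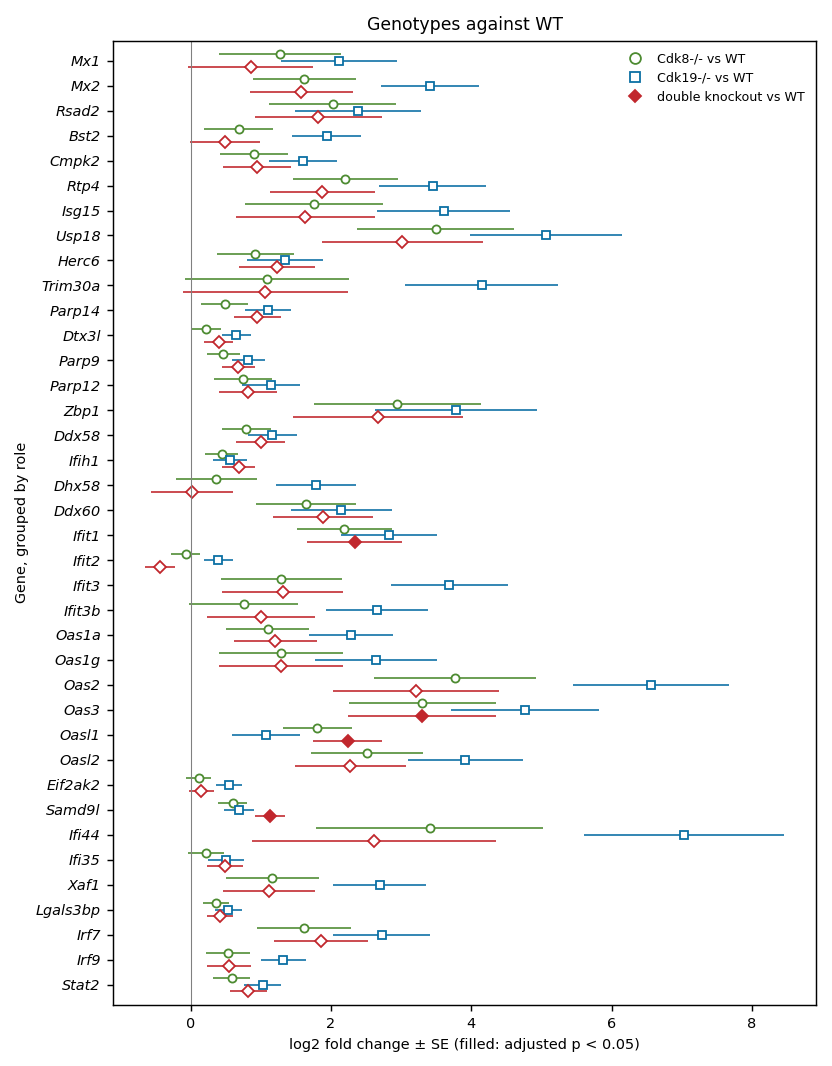
Fitted log2 fold change of each of the 38 genes against WT for Cdk8-/-, Cdk19-/- and double knockout organoids, with bars of 1 SE. Filled symbols have an adjusted p under 0.05, which are 4 double knockout values. The highest fitted value is 7.03 for Cdk19-/-, 3.77 for Cdk8-/- and 3.30 for the double knockout, and Ifit2 is the gene below 0 in the latter pair of comparisons.

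Against Cdk8-/- organoids, the double knockout showed no difference in the list that was called (0.0256% of all genes were called), with 1 member at an unadjusted p under 0.05 and none called by DESeq2's Wald test. The log2 fold changes lay between −0.80 and 0.54, with a median of 0.03, and 21 of 38 were above 0 (48.9% of all genes). The median SE of the members in this comparison was 0.59.

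Against Cdk19-/- organoids, 8 of 38 members fell in the double knockout (21.1%, against 11% of all genes) and none rose (14.4% of all genes), where 25.3% of all genes were called in either direction. The log2 fold change was below 0 for 35 members and above 0 for 48.8% of all genes, with a median of −0.84 (−0.37 over the 26 members with at least 10 counts in every library) and a range of −4.42 to 1.16. The 8 were Ifi44, Oas2, Ifit2, Ifit3, Trim30a, Dhx58, Bst2 and Mx2. When each library of the 2 groups was left out in turn, the call of Oas2 held in 6 of 6 fits, those of Ifi44 and Ifit2 in 5 of 6, that of Ifit3 in 2 of 6 and those of Trim30a, Dhx58, Bst2 and Mx2 in 1 of 6. The log2 fold change then ranged from −1.85 to −0.72 for Bst2 and from −2.88 to −1.08 for Ifit3. For 4 of them, Ifit2, Oas2, Ifi44 and Bst2, every double knockout library was below every Cdk19-/- library (19.4% of all genes). Ifi44, with the CPM given above, had a log2 fold change −4.42, SE 1.12, adjusted p = 0.0131, and Oas2 a log2 fold change −3.35, SE 0.85, adjusted p = 0.0136. Ifit2, whose protein binds viral RNA and slows translation, was at 14.5, 22.3 and 14.9 CPM in Cdk19-/- and 7.3, 10.9 and 10.9 CPM in double knockout libraries (log2 fold change −0.82, SE 0.21, adjusted p = 0.0139). Its WT libraries held 11.3, 12.7 and 15.4 CPM, which overlapped the Cdk19-/- libraries, and its Cdk8-/- libraries 14.2, 12.6 and 10.7 CPM, which lay below them.

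For the other 4 the groups overlapped. Ifit3 was at 33.3, 8.98 and 3.17 CPM in Cdk19-/- and 2.18, 3.29 and 3.25 CPM in double knockout libraries (log2 fold change −2.37, SE 0.76, adjusted p = 0.0376). Mx2, an antiviral GTPase, was at 11.1, 7.48 and 1.39 CPM and 1.16, 2.24 and 2.14 CPM (log2 fold change −1.84, SE 0.61, adjusted p = 0.0453). Dhx58, the regulator of RIG-I and MDA5, was at 59.1, 25.3 and 9.31 CPM and 6.62, 11.6 and 9.23 CPM (log2 fold change −1.77, SE 0.57, adjusted p = 0.0405). In each of the 3 the overlap came from Cdk19-/- replicate 3, the lowest of its group. Trim30a behaved likewise, at 32.1, 10.9 and 1.45 CPM in Cdk19-/- and 0.614, 2.17 and 2.4 CPM in double knockout libraries (log2 fold change −3.09, SE 1.00, adjusted p = 0.0397). Bst2, which tethers virus particles to the cell surface, was at 47.7, 20.4 and 10.9 CPM and 8.33, 9.95 and 10.6 CPM (log2 fold change −1.45, SE 0.48, adjusted p = 0.0428), without overlap.

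The comparisons were repeated without the libraries that had Cdk19 at the WT level. Without the library labelled Cdk19-/- replicate 1, 3 members were called between double knockout and Cdk19-/- organoids, with Oas2 and Ifit2 lower (log2 fold changes −2.36 and −0.96, adjusted p = 0.0473 and 0.00937) and Oasl1 higher (2.12, adjusted p = 0.00118), where 12.6% of all genes were lower and 14.5% higher, and the median over the members was −0.10. Without it and the library labelled double knockout replicate 3, Oasl1 was higher (2.28, adjusted p = 0.00109) and Ifit2 lower (−1.04, adjusted p = 0.0121), where 15.1% of all genes were higher and 13.4% lower. In the same 10 libraries, 6 members rose in double knockout against WT organoids, with Oasl1 (2.39, adjusted p = 0.0011), Samd9l (1.10, adjusted p = 0.0136) and Stat2 (0.85, adjusted p = 0.0143) foremost and Ifi35, Lgals3bp and Parp9 the others (10.3% of all genes rose). In Cdk19-/- against WT organoids Oas2 (5.56, SE 1.04, adjusted p = 0.0154) and Ifi44 (5.33, SE 1.26, adjusted p = 0.0417) rose (2.17% of all genes). Oas2 had 5, 13 and 7 counts in the WT libraries and Ifi44 1, 5 and 3. Both could pass the filter through the mutant libraries, so these calls are a description. In Cdk8-/- against WT organoids Oasl1 rose (1.79, SE 0.28, adjusted p = 0.00543), as did 4.17% of all genes. The median over the members in Cdk19-/- against WT organoids was then 1.10 in place of 2.13.

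Whether the double knockout differed from the sum of the single mutants was tested as the departure from additivity, the double knockout plus WT minus both single mutants on the log2 scale. No member was called (0.0256% of all genes were), 23 had an unadjusted p under 0.05, and DESeq2's Wald test called 8, all below 0 (1.08% of all genes). The departure was below 0 for 38 of 38 members (above 0 for 49.4% of all genes), with a median of −2.16 (−1.06 over the 26 members with at least 10 counts in every library) and a range of −7.83 to −0.15. The lowest adjusted p-value was 0.0693, for Oas2, with a departure of −7.12 (SE 1.42). Without the libraries with Cdk19 at the WT level the median was −1.33 and 1 member, Oas2, was called (−6.32, SE 1.42, adjusted p = 0.0337), where 1.8% of all genes were called below 0.

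Among the genotype comparisons, markers of enterocytes and stem cells were called mainly in those of the double knockout. In Cdk8-/- against WT organoids 1 of 8 enterocyte markers rose, Apoa4 (2.79% of all genes rose), and 1 of 5 stem cell markers fell, Lgr5 (2.36% fell), and in Cdk19-/- against WT none was called. In the double knockout 5 of 8 enterocyte markers rose against WT and 7 of 8 against Cdk19-/- (9.41% and 14.4% of all genes rose), 4 of 5 and 5 of 5 stem cell markers fell (7.9% and 11% fell), and against Cdk8-/- none was called. Enterocyte markers summed to 6044 to 6636 CPM in WT, 7739 to 8488 CPM in Cdk8-/-, 3741 to 5216 CPM in Cdk19-/- and 9997 to 14558 CPM in double knockout libraries. Stem cell markers summed to 2488 to 2834 CPM in WT, 2216 to 3544 CPM in Cdk8-/-, 3309 to 5220 CPM in Cdk19-/- and 1781 to 1978 CPM in double knockout libraries. In the Senexin B experiment at 24 h, enterocyte markers summed to 3007 to 3542 CPM with DMSO and to 2912 to 3174 CPM with Senexin B. Stem cell markers there summed to 1809 to 2233 CPM with DMSO and to 1763 to 2080 CPM with Senexin B. The part of these cell types in the levels of the interferon-stimulated genes was not tested.

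In the Senexin B experiment the 38 members summed to 2614, 3133 and 3703 CPM with DMSO at 16 h and to 2268, 4242 and 3938 CPM with DMSO at 24 h. With Senexin B they summed to 1696, 3729 and 3266 CPM at 16 h and to 1481, 2749 and 3002 CPM at 24 h. Replicate 1 was the lowest library of its group in all 4 groups for 36 of 38 members, against 10.6% of all genes. Within each time, libraries with the same replicate number deviated together most clearly for replicate 1, with correlations of 0.303 at 16 h and 0.377 at 24 h. At 16 h those of replicates 2 and 3 (0.101 and 0.11) lay below the highest between different numbers (0.154). At 24 h that of replicate 2 (0.137) did so too (0.147). The comparisons of Senexin B with DMSO are given both without and with the replicate number as a block, the latter called the paired fit. Its block is shared by 16 h and 24 h.

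**Figure D4:**
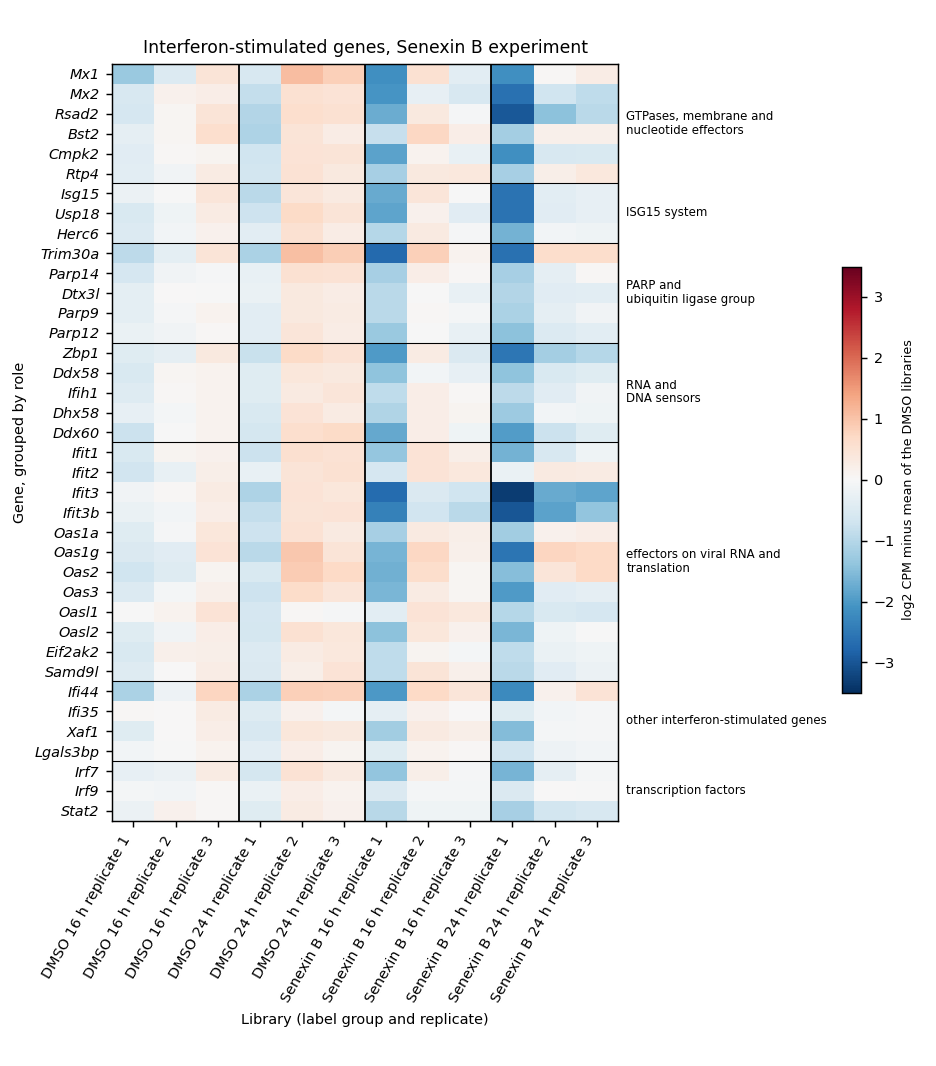
Level of each of the 38 genes (rows, grouped by role) in each of the 12 libraries of the Senexin B experiment (columns), as log2 CPM with a prior count of 2, minus the mean of the 6 DMSO libraries. Red is above and blue below that mean. Replicate 1 is the bluest column of every group, and Ifit3 and Ifit3b are blue in all 3 Senexin B libraries at 24 h.

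After 16 h of Senexin B no member was called without the block (7.75% of all genes were), 2 had an unadjusted p under 0.05, and DESeq2's Wald test called none. In the paired fit 7 of 38 members fell (18.4%, against 7.34% of all genes lower and 14.8% called in all) and none rose. Leaving out 1 library at a time from this fit gave 5 to 20 members called (7.51% to 15.6% of all genes), with 20 without DMSO 16 h replicate 2 (11.6% of all genes) and 12 without Senexin B 16 h replicate 2 (7.51%). Without the block 27 of 38 log2 fold changes were below 0 (48.7% of all genes were above 0). The median was −0.10, and −0.19 in the paired fit, where 36 of 38 were below 0. For 7 of 38 members Senexin B was below DMSO in each of the 3 pairs of libraries, as it was for 23% of all genes. The members that fell were Ifit3, Ifit3b, Mx2, Stat2, Ddx58, Dtx3l and Eif2ak2.

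Ifit3, of the IFIT family, was at 38.5, 43.8 and 51.6 CPM with DMSO and 6.5, 29.6 and 25.9 CPM with Senexin B at 16 h, without overlap. Its log2 fold change was −1.11 (SE 0.47, adjusted p = 0.174) without the block and −1.31 (SE 0.23, adjusted p = 0.00131) in the paired fit. Ifit3b, its copy on the same chromosome, was at 15.1, 16.6 and 20.6 CPM and 3.38, 11 and 9.17 CPM, also without overlap (paired fit, log2 fold change −1.24, SE 0.20, adjusted p = 0.000737). These were the 2 members (5.26%) whose groups did not overlap, against 12.6% of all genes. Mx2 was at 14.1, 23.3 and 24.4 CPM and 4.94, 17 and 14.1 CPM (paired fit, log2 fold change −0.87, SE 0.15, adjusted p = 0.00117). Stat2 was at 90.7, 116 and 107 CPM and 53.2, 93.1 and 93.3 CPM (paired fit, log2 fold change −0.42, SE 0.09, adjusted p = 0.0033), and Ddx58 at 45.5, 68.8 and 71 CPM and 24.5, 60.9 and 53.8 CPM (paired fit, log2 fold change −0.47, SE 0.10, adjusted p = 0.00371). In these the groups overlapped, and each Senexin B library lay below the DMSO library of its number. Eif2ak2 (−0.23, SE 0.07, adjusted p = 0.0292) and Dtx3l (−0.27, SE 0.08, adjusted p = 0.0394) fell least of the 7 in the paired fit. When each library was left out in turn, the calls of these 2 held in 2 of 6 fits and those of the other 5 in 6 of 6.

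After 24 h of Senexin B, 7 of 38 members fell without the block (18.4%, against 12.7% of all genes lower and 27.5% called in all) and 29 of 38 in the paired fit (76.3%, against 17.6% lower and 36.9% called in all), and none rose in either. The log2 fold change was below 0 for 38 of 38 members (above 0 for 50.1% of all genes), with a median of −0.65 and a range of −2.26 to −0.08, and a median of −0.70 in the paired fit. Senexin B was below DMSO in each of the 3 pairs for 33 members (86.8%), against 32.5% of all genes. The groups did not overlap for 6 members (15.8%), Ifit3, Ifit3b, Stat2, Zbp1, Ddx58 and Dtx3l, against 22.1% of all genes.

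Ifit3 and Ifit3b, whose promoters open this account, fell most. Ifit3 was at 19.9, 59.3 and 55.2 CPM with DMSO and 4.12, 12.4 and 11.6 CPM with Senexin B at 24 h (means 44.8 ± 21.6 and 9.37 ± 4.56 CPM, SD, n = 3). Its values were a log2 fold change −2.26, SE 0.50, adjusted p = 0.00475 without the block, and adjusted p = 9.31e-06 in the paired fit. Ifit3b was at 9.81, 24.4 and 24.5 CPM and 2.15, 4.77 and 6.76 CPM (log2 fold change −2.10, SE 0.43, adjusted p = 0.00284, and adjusted p = 4.88e-06 in the paired fit). Both calls held in 6 of 6 fits that each left out 1 library. Of the other Ifit genes, Ifit1 fell in the paired fit by 0.88 on the log2 scale (adjusted p = 0.000629) and Ifit2 was not called (−0.12, adjusted p = 0.416).

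Among the transcription factors, Stat2 and Irf7 fell and Irf9 was not called. Stat2 was at 77.2, 127 and 116 CPM with DMSO and 46.8, 66.8 and 70.2 CPM with Senexin B (log2 fold change −0.80, SE 0.22, adjusted p = 0.0148, and adjusted p = 7.98e-06 in the paired fit), and without the block the call held in 4 of 6 fits that each left out 1 library. Irf7 was at 178, 383 and 335 CPM and 88.5, 217 and 261 CPM, and its call rested on the paired fit (log2 fold change −0.72, SE 0.19, adjusted p = 0.00705). Irf9, the DNA-binding subunit of ISGF3, was at 75.8, 103 and 95.9 CPM and 62.2, 89.4 and 87.2 CPM (paired fit, log2 fold change −0.21, SE 0.08, adjusted p = 0.0616).

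All 5 sensors fell in the paired fit, with a median of −0.90. Zbp1 was at 2.87, 8.07 and 7.17 CPM with DMSO and 0.816, 2.16 and 2.46 CPM with Senexin B (log2 fold change −1.73, SE 0.51, adjusted p = 0.0213 without the block), a call that held in 2 of 6 fits that each left out 1 library. Ddx58 was at 48.9, 86.6 and 83.2 CPM and 24.4, 45.2 and 48.8 CPM (paired fit, log2 fold change −0.90, SE 0.10, adjusted p = 7.16e-06), and Ddx60 at 35.8, 83.3 and 87.8 CPM and 14.1, 32.6 and 41.2 CPM (paired fit, log2 fold change −1.25, SE 0.16, adjusted p = 2.77e-05). In Ddx60 the DMSO library of replicate 1 lay within the Senexin B range, while each pair was lower with Senexin B. Ifih1 and Dhx58 had paired log2 fold changes of −0.57 and −0.57.

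The ISG15 system fell as a whole in the paired fit, 3 of 3 members, and none of the 3 was called without the block. Isg15 was at 19.2, 49.6 and 46.2 CPM with DMSO and 6.05, 28.8 and 30.5 CPM with Senexin B (paired fit, log2 fold change −0.90, SE 0.26, adjusted p = 0.0126), with replicate 1 of DMSO below replicates 2 and 3 of Senexin B. Usp18, which removes ISG15 and restrains the receptor, had a paired log2 fold change of −1.10 (adjusted p = 0.00159), and Herc6 of −0.71 (adjusted p = 0.0132).

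Of the GTPases, membrane and nucleotide effectors, 4 of 6 fell in the paired fit. Rsad2, which makes a chain-terminating nucleotide, was at 8.69, 26.5 and 25.5 CPM with DMSO and 2.19, 6.53 and 9.18 CPM with Senexin B (log2 fold change −1.76, SE 0.54, adjusted p = 0.0261, and adjusted p = 1.08e-05 in the paired fit). Mx2 was at 11.6, 30.2 and 29.3 CPM and 3.38, 12.8 and 11.2 CPM (log2 fold change −1.37, SE 0.47, adjusted p = 0.0436, and adjusted p = 9.01e-06 in the paired fit). Both overlapped through replicate 1 of DMSO, and without the block the call of Mx2 held in 1 of 6 fits that each left out 1 library and that of Rsad2 in 2 of 6. Mx1 had a paired log2 fold change of −0.96 and Cmpk2 of −1.12, while Bst2 (−0.17) and Rtp4 (−0.25) were not called.

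Of the effectors on viral RNA and translation, 8 of 12 fell in the paired fit. Eif2ak2, the kinase that stops translation when it binds double-stranded RNA, was at 78.2, 134 and 140.2 CPM with DMSO and 59, 92.3 and 99.2 CPM with Senexin B (paired fit, log2 fold change −0.48, SE 0.07, adjusted p = 5.86e-05). Oas2 was at 55.5, 151 and 130.2 CPM and 28.7, 107 and 132 CPM and was not called (paired fit, log2 fold change −0.43, SE 0.24, adjusted p = 0.187) and in replicate 3 the Senexin B library was the higher of its pair. Oas1a (−0.30), Oas1g (−0.23) and Ifit2 were not called either. Oas3 had a paired log2 fold change of −0.99 and Oasl2 of −0.69. Oasl1 and Samd9l, which rose in double knockout organoids, fell here in the paired fit: Oasl1 was at 68.1, 106 and 100.3 CPM and 51.5, 70.9 and 68.6 CPM (log2 fold change −0.51, adjusted p = 0.001), and Samd9l at 66.2, 108 and 131 CPM and 48.4, 70.9 and 81 CPM (−0.59, adjusted p = 0.00132).

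Among the PARP and ubiquitin ligase group, 4 of 5 fell in the paired fit. Dtx3l, a ubiquitin ligase that works with PARP9, was at 78.5, 116 and 111 CPM with DMSO and 45.8, 70.5 and 72.2 CPM with Senexin B (log2 fold change −0.70, SE 0.22, adjusted p = 0.0295, and adjusted p = 1.84e-05 in the paired fit), and without the block the call held in 3 of 6 fits that each left out 1 library. Parp9 was at 75.6, 124 and 119.7 CPM and 45.6, 78.3 and 90.5 CPM (paired fit, log2 fold change −0.59, SE 0.10, adjusted p = 0.000242). Parp12 (−0.85) and Parp14 (−0.72) fell too, and Trim30a (−0.53, adjusted p = 0.201) was not called. Of the rest, Ifi44 (−0.66), Xaf1 (−0.59) and Lgals3bp (−0.30) fell, and Ifi35 (−0.08, adjusted p = 0.534) was not called.

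**Figure D5:**
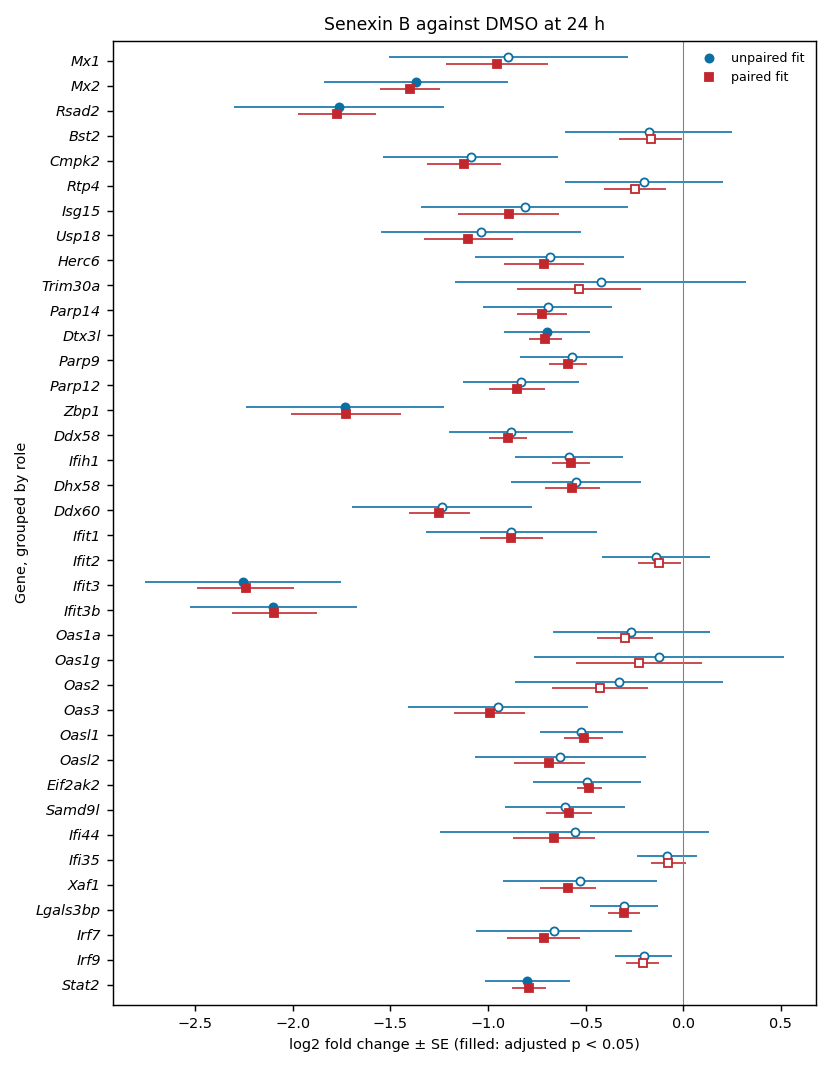
Log2 fold change of Senexin B against DMSO at 24 h for each of the 38 genes, grouped by role, without the replicate block (circles) and in the paired fit (squares), with bars of 1 SE. Filled symbols have an adjusted p under 0.05, 7 circles and 29 squares. Ifit3 and Ifit3b lie lowest, with paired values of −2.24 and −2.09, and the bars of the paired fit are the shorter.

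Without replicate 1 of all 4 groups, which leaves 2 libraries a group, 27 members fell at 24 h (15.4% of all genes did). At 16 h the same 8 libraries gave 7 calls, with Ifit3b (−0.88), Ifit3 (−0.79), Mx2 (−0.62), Ddx58 (−0.29) and Stat2 (−0.26) lower and Oas2 (0.53) and Ifit2 (0.43) higher, where 6.97% of all genes were lower and 7.61% higher, and the median over the members was 0.04. Without replicate 1 the median at 24 h was −0.61, against −0.65 with all libraries. In the same libraries 23 members were called between DMSO at 24 h and 16 h, 22 higher (7.64% of all genes) and Oasl1 lower (8.43% of all genes), and the difference of the Senexin B effect between the times was lower at 24 h in 23 members (2.8% of all genes).

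Whether the effect of Senexin B differed between the times was tested as the difference of the 2 log2 fold changes. Without the block no member was called (0% of all genes were), none had an unadjusted p under 0.05, and DESeq2's Wald test called none. In the paired fit 1 member, Rsad2, was called (2.63%, against 0.2% of all genes lower and 0.388% called in all), with a difference of −1.39 (SE 0.27, adjusted p = 0.0434), and 22 had an unadjusted p under 0.05. When each of the 12 libraries was left out of the paired fit in turn, Rsad2 was called in 4 of 12 fits (adjusted p from 0.00168 to 0.214), and 0 to 21 members were called, 21 without DMSO 16 h replicate 1 (2.08% of all genes) and 11 without Senexin B 16 h replicate 1 (2.89%). The difference was below 0, that is a lower value at 24 h, for 37 of 38 members without the block (above 0 for 52% of all genes), with a median of −0.53.

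Between the DMSO groups, the list was compared at 24 h and 16 h to show its course without drug. No member was called (11.1% of all genes were), none had an unadjusted p under 0.05, and DESeq2's Wald test called none. The log2 fold change was above 0 for 34 of 38 members (50.1% of all genes), with a median of 0.21. This comparison shares its libraries with the comparisons of Senexin B with DMSO.

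The genes that make and carry the interferon signal were followed as a list of 42 further genes, of which 31 were tested in each experiment. The 10 interferon genes themselves, the ligands, summed to at most 0.147 CPM in any library, and none passed the filter. In Cdk8-/- against WT organoids 1 of the 31 fell, Mb21d1 (cGAS, the sensor of cytosolic DNA, −0.55, SE 0.14, adjusted p = 0.0435), and none rose, where 2.36% of all genes fell and 2.79% rose. In Cdk19-/- against WT organoids none was called. In double knockout against WT organoids 6 rose and 2 fell, where 9.41% of all genes rose and 7.9% fell. The receptor chains of type III interferon, Ifnlr1 (0.70, SE 0.15, adjusted p = 0.00901) and Il10rb (0.70, SE 0.16, adjusted p = 0.0121), were among those that rose, as were Stat3, Tlr3 (0.90, SE 0.15, adjusted p = 0.00271), its adaptor Ticam1 and the kinase Ikbke. Mb21d1 and Irf8 fell. Against Cdk8-/- organoids the double knockout had none called, and against Cdk19-/- organoids 8 higher and 2 lower, where 14.4% of all genes were higher and 11% lower.

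With Senexin B at 16 h, 2 of the 31 fell and 1 rose without the block, where 7.75% of all genes were called, and 4 fell and 1 rose in the paired fit, where 14.8% were called. At 24 h 9 fell and 1 rose without the block, where 27.5% were called. At both times Ifngr1, a receptor chain of interferon gamma, was the gene that rose (0.31 and 0.35, adjusted p = 0.00601 and 0.000861). Stat3 fell at both (−0.45 and −0.49, adjusted p = 0.000383 and 8.4e-05). At 24 h the receptor kinases Jak1 (−0.25, adjusted p = 0.0088) and Jak2 (−0.31, adjusted p = 0.0112) fell, as did the sensor Tlr3 (−0.62, adjusted p = 0.0085), the kinase Tbk1 (−0.40, adjusted p = 0.00361) and Samhd1 (−0.50, adjusted p = 0.00419). In the paired fit 11 fell and 1 rose at 24 h, where 36.9% of all genes were called. In the Mediator kinase module itself, 4 of 6 genes tested fell at 24 h without the block (12.7% of all genes fell and 27.5% were called in all), Cdk19, Med12, Med13 and Med13l, with Cdk19 at a log2 fold change of −0.25 (adjusted p = 0.0375).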

How the data were processed

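RNA of 24 organoid libraries, in biological triplicates, was sequenced by the authors, aligned to GRCm38 with STAR, and deposited as whole-number counts of reads per gene, without normalisation. The second strand column of the tables was used. From these counts, genes were filtered with filterByExpr (15602 tested in the genotype and 15467 in the Senexin B experiment), scaled by TMM and compared by edgeR's quasi-likelihood F test (edgeR 4.0.16 under R 4.3.3). Each experiment had its own model and normalisation, with 12 libraries, so levels are not compared between experiments. P-values were adjusted by Benjamini-Hochberg over all genes tested. DESeq2 1.42.0, other filters, counts taken without regard to strand, a block on the replicate number and leaving out each library were alternatives. The code was tested on simulated data. The members and lists were chosen with earlier results of these data known.

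Library values are given for the members called, at most the 10 with the smallest adjusted p-values in a comparison. Irf7, Isg15 and Stat2 in the genotypes, Oas2 and Ifi44 against WT, and Irf7, Irf9, Isg15, Oas2, Oasl1 and Samd9l at 24 h were added after their values were seen. Deviations from the group means correlated between same-numbered DMSO and Senexin B libraries at 0.101 to 0.303 at 16 h and 0.137 to 0.377 at 24 h, and between different numbers at −0.221 to 0.154 and −0.26 to 0.147. The pairing rests on these correlations, since the labels do not say what a number shares. No replicates were duplicates, but some pairs were close. The chi-square per degree of freedom between their counts was 2.31 for WT replicates 1 and 2. It was 4.01 for Cdk19-/- replicates 2 and 3, and up to 35.9 for other pairs. The labels name total RNA depleted of rRNA for the Senexin B libraries, and the protocol text names oligo(dT). Promoters and gene lengths came from RefSeq and GENCODE vM21, both GRCm38. 1 gene of the wider pathway list is not reported here by name.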

Additional observations from a re-analysis of the deposited data

Results flagged for a closer look

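In the paired fit of all 12 libraries, the test of whether the effect of Senexin B differed between the times passed the threshold for 1 member, Rsad2, and it did not in 8 of the 12 paired fits that left out 1 library (adjusted p up to 0.214). With all 12 libraries the log2 fold change at 24 h minus that at 16 h was −1.39 (SE 0.27, adjusted p = 0.0434, edgeR's quasi-likelihood test on the difference itself), and without the block it was −1.49 (adjusted p = 0.413). Rsad2, the antiviral enzyme viperin, was at 11.7, 18.5 and 24.2 CPM with DMSO and 5.28, 22.7 and 17.1 CPM with Senexin B at 16 h, where in replicate 2 the Senexin B library was the higher of its pair. At 24 h it was at 8.69, 26.5 and 25.5 CPM with DMSO and 2.19, 6.53 and 9.18 CPM with Senexin B, lower in 3 of 3 pairs. The cause was not tested.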

How the results depend on the processing

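The number of members called varied with the filter and the model, while none of the called members that were followed under the alternatives (at most 10 a comparison) changed direction. Members that were not called were not followed. Of 280 values of single members under alternatives 201 kept their side of the threshold and 79 lost it, and of 153 values in the paired fits 144 and 9. DESeq2's Wald test called 6 members in Cdk8-/- against WT (edgeR 0), 23 in Cdk19-/- against WT (edgeR 0), 12 in double knockout against WT (edgeR 4) and 8 for the departure from additivity (edgeR 0), with 8.45%, 2.01%, 20.8% and 3.18% of all genes called. Without a filter on low counts, 14, 33, 21 and 20 members were called in these comparisons (4.26%, 1.61%, 9.71% and 1.9% of all genes), 21 in double knockout against Cdk19-/- (13.8%; edgeR 8 members, with it), 4 with Senexin B at 16 h (4.97%), 26 at 24 h (15%), 3 between the DMSO groups (6.55%) and 1 for the difference between the times (0.426%). In the last 4 comparisons the fit with the replicate block and no filter called 18, 34, 12 and 28 (9.04%, 20.5%, 12.6% and 3.42% of all genes). When every library had to hold at least 10 counts, 3 of 26 members tested were called in double knockout against Cdk19-/- organoids (11.5%, against 27.7% of all genes), and the median of the tested members was 1.25 in Cdk19-/- against WT and −1.06 for additivity. With only the groups compared in the fit, 2 of 36 were called in Cdk8-/- against WT (5.56%, against 6.26% of all genes), 22 of 35 in double knockout against WT (62.9%, against 18.6%), 4 of 38 in double knockout against Cdk19-/- (10.5%, against 19.2%) and 11 of 38 with Senexin B at 24 h (28.9%, against 30.7%).

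Same-numbered genotype libraries correlated at −0.193 to 0.219 and were not taken as pairs. The DMSO libraries at 16 h and 24 h correlated at 0.366 for replicate 1, −0.05 for replicate 2 and 0.284 for replicate 3. In the paired fit the block was nevertheless shared by all 12 libraries of the Senexin B experiment. It therefore also tied same-numbered libraries across 16 h and 24 h. With the replicate block 2 members were called in double knockout against WT (16.8% of all genes), 3 in double knockout against Cdk19-/- (25.1%) and 4 between the DMSO groups (21.2%; Ifit2, Mx1 and Parp14 higher, Oasl1 lower), and with Senexin B 7 at 16 h (14.8%), 29 at 24 h (36.9%) and 1 for the difference between the times (0.388%). DESeq2 with the block called 3, 16, 9 and 6 in Cdk8-/-, Cdk19-/- and double knockout against WT and for additivity (7.74%, 1.86%, 18.8% and 3.13% of all genes), and 7 at 16 h, 27 at 24 h, 4 between the DMSO groups and 4 for the difference between the times (12.8%, 32.1%, 19% and 2.5%).

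Leaving out 1 library at a time gave 0 to 2 calls in Cdk8-/- (1.23% to 4.39% of all genes) and in Cdk19-/- against WT (0% to 3.27%), 2 to 4 in double knockout against WT (8.47% to 15.4%), 0 to 1 against Cdk8-/- (0.0188% to 5.28%), 3 to 13 against Cdk19-/- (15.1% to 27.1%; 3 without Cdk19-/- replicate 1, 13 without Cdk19-/- replicate 3) and 0 to 1 for additivity (0% to 2.93%). It gave 2 to 12 with Senexin B at 24 h (16.9% to 24.2%), and in the paired fits 27 to 29 at 24 h (24.4% to 33.3%), 5 to 20 at 16 h (7.51% to 15.6%; 20 without DMSO replicate 2), 1 to 24 between the DMSO groups (7.12% to 24.8%; 24 without DMSO 16 h replicate 1) and 0 to 21 for the difference between the times (0% to 5.97%; 21 without DMSO 16 h replicate 1). Without Cdk19-/- replicate 1 the median was 1.10 in Cdk19-/- against WT and −1.28 for additivity. Without both libraries that had Cdk19 at the WT level, calls numbered 1, 2 and 6 in Cdk8-/-, Cdk19-/- and double knockout against WT, 2 against Cdk19-/- and 1 for additivity (8.27%, 4.21%, 19%, 28.5% and 4.6% of all genes), and the medians were 1.10 and −1.33. Without replicate 1 of all 4 Senexin B groups they numbered 7 at 16 h, 27 at 24 h, 23 between the DMSO groups and 23 for the difference between the times (14.6%, 32.2%, 16.1% and 4.93%). Settings that leave out several libraries at once, or that combine the block with another choice, were chosen after seeing the data. The causes of these changes were not tested. Low members such as Ifi44 (1, 5 and 3 counts), Zbp1 (3, 5 and 0) and Trim30a (5, 15 and 16) had few counts in the 3 WT libraries.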
